A study of Mus musculus with 21 samples.

Results

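Macrophages treated for 6 h with the interleukins IL-4 and IL-13 were compared with macrophages treated for the same time with these interleukins and tumour necrosis factor (TNF). The comparison sets the 3 libraries of the group IL_TNF_6h against the 3 libraries of the group IL_6h, 6 of 21 libraries, and was made over every gene that passed a filter on low counts. Of 47069 gene identifiers, 15581 passed and were tested. No gene was chosen by its response.

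The cells were bone-marrow-derived macrophages, grown in culture from the marrow of wild-type C57BL/6 mice aged 8 to 10 weeks in the presence of M-CSF, the growth factor that turns marrow cells into macrophages. Cells in both groups carried the same genotype and both received IL-4 and IL-13 at 10 ng/ml, and IL_TNF_6h also received TNF at 10 ng/ml. Further groups serve for differences of effects: untreated cells at 0 h (Ctrl_0h), TNF without interleukins for 6 h (TNF_6h), and the interleukins without and with TNF for 24 h (IL_24h and IL_TNF_24h), each with 3 libraries. The last group, TNF without interleukins for 24 h (TNF_24h, 3 libraries), entered the model fitted over all 21 libraries. It also entered ranges over the libraries without interleukins, but its effects are not reported here. The labels do not say whether libraries of a group came from separate mice or cultures, so p values measure the spread between these libraries, which may be technical.

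IL-4 and IL-13 bind receptors that share the IL-4 receptor alpha chain, signal through JAK kinases and the transcription factor STAT6, and induce the alternative activation programme of macrophages, with arginase, resistin-like and chitinase-like proteins and the mannose receptor as its usual markers. TNF binds the receptors TNFR1 and TNFR2, releases the NF-kB transcription factors from their IkB inhibitors and activates MAP kinases, and so induces cytokines, chemokines, adhesion molecules and the inhibitors that end its own signal. The question the comparison answers is which genes of both programmes differ when TNF is present during the early response to the interleukins.

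The 6 libraries held between 31.3 M and 42.0 M counts in genes (M, 1e6; 28.1 M to 48.7 M over all 21), and library totals were scaled by TMM, a trimmed mean of log ratios. Levels below are CPM, counts scaled to a common library total of 1e6, given in the order of replicates 1, 2 and 3. They are not divided by gene length and are compared within a gene. Replicate 2 of IL_6h and replicate 3 of IL_TNF_6h stood apart from their groups. Over 8290 genes with a mean of at least 10 CPM, the log2 difference between IL_6h replicates 1 and 3 had an SD of 0.192, and differences with replicate 2 had an SD of 0.496 and 0.382. In IL_TNF_6h the SD was 0.136 between replicates 1 and 2, and 0.429 and 0.372 with replicate 3. Both libraries departed in the same direction: 14 genes were at least 2-fold higher than their group in both and 27 at least 2-fold lower, with 0 in opposite directions. Csf2ra, a chain of the GM-CSF receptor, had 1103, 358 and 730.3 CPM in IL_6h and 1164, 1091 and 420.3 CPM in IL_TNF_6h, and the mitochondrial ribosomal RNA mt-Rnr2 had 71.5, 381 and 107 and 71.2, 120.1 and 334 CPM. With 1 such library in each group, 0 of these 41 genes was called in the comparison, against 14.1% of all genes tested. They were picked for a wide spread within both groups, which itself makes a call unlikely. The count therefore does not show how far these libraries moved other calls. The comparison was repeated without both libraries, and that value is given where it ended the call of a gene named with its value or moved a count by more than 1.5 times.

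**Figure D1:**
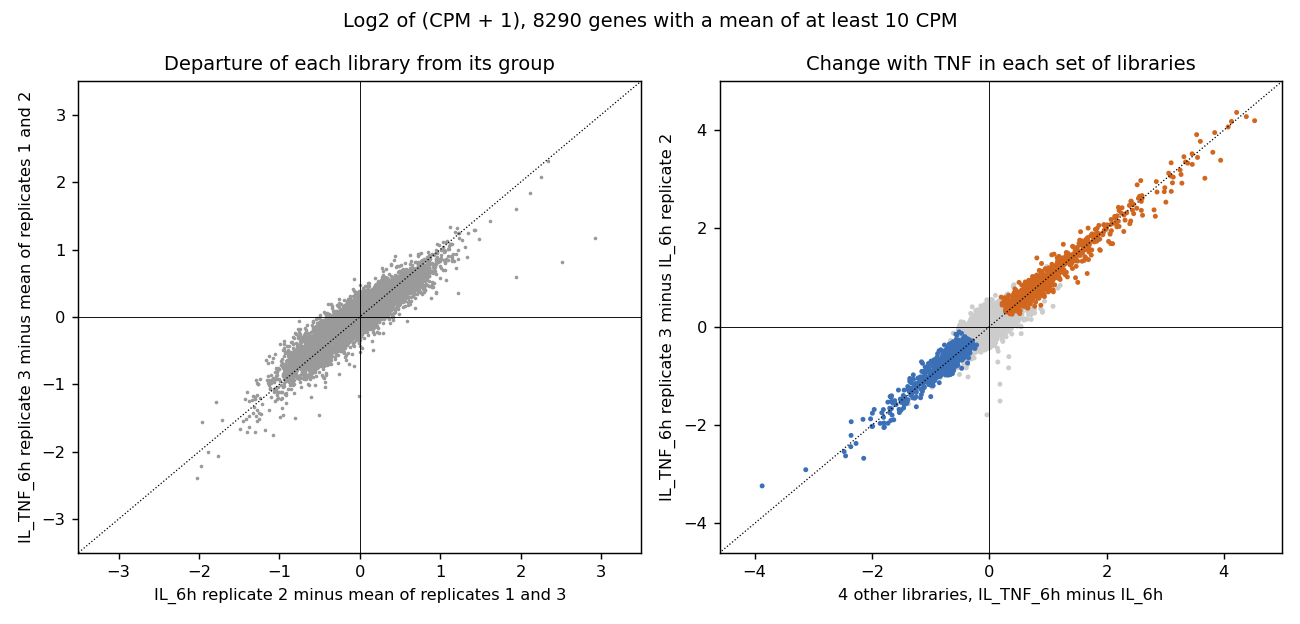
Each point is 1 of 8290 genes with a mean of at least 10 CPM, on a scale of log2(CPM + 1); the left panel plots the departure of IL_6h replicate 2 from the mean of its group's other replicates on the horizontal axis against that of IL_TNF_6h replicate 3 on the vertical axis, and the right panel plots the change with TNF in the 4 other libraries against the change between the libraries that stand apart, with raised genes in orange, lowered genes in blue and uncalled genes in grey. The departures lie along the diagonal, and so do the changes with TNF, with a Pearson correlation of 0.951 across genes in the right panel; genes are not independent replicates, and each panel's points share libraries.

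Adding TNF to the interleukins for 6 h changed 2197 of 15581 genes, 14.1% of those tested. Of these, 1108 (7.11%) rose and 1089 (6.99%) fell, at an adjusted p below 0.05 in the quasi-likelihood F test of edgeR with Benjamini-Hochberg adjustment over all genes. At least 2-fold changes were called for 542 raised genes (3.48%) and 383 lowered genes (2.46%). An unadjusted p below 0.05 was found for 3589 genes (23.0%). The 3 libraries of each group did not overlap for 4231 genes (27.2%), with all 3 above for 2015 (12.9%) and all 3 below for 2216 (14.2%). The median log2 fold change over all genes tested was -0.013. Standard errors, given after ± beside log2 fold changes, were worked back from the F statistic. Without both libraries that stand apart, 907 genes rose and 870 fell, and 860 and 798 of the same genes kept their call. In these bulk libraries, fewer cells of a type and less RNA per cell cannot be told apart.

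**Figure D2:**
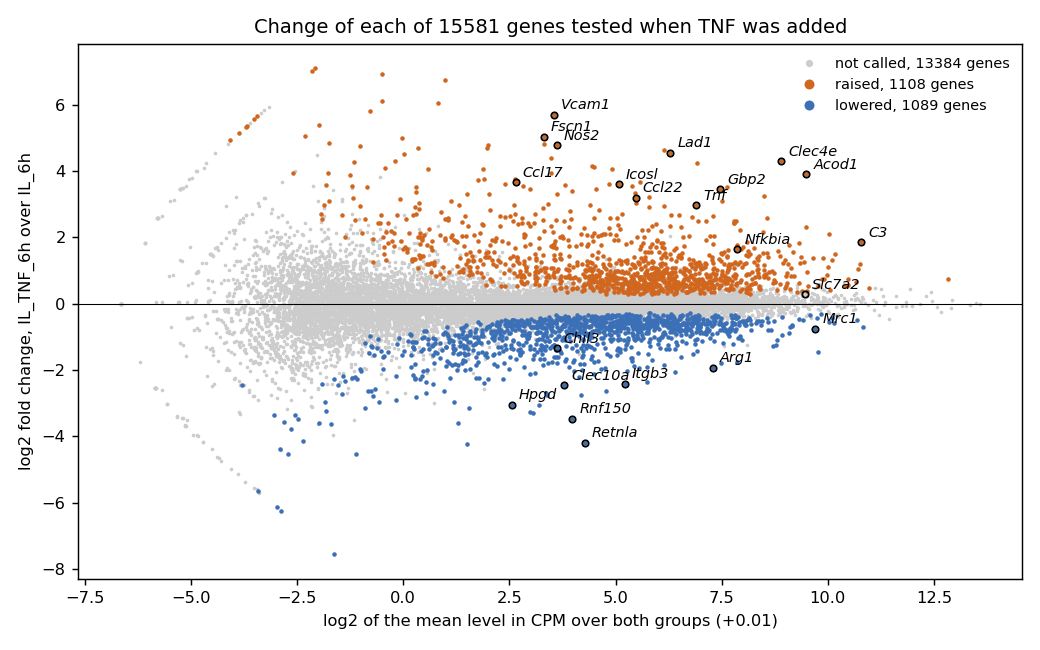
Each point is 1 of 15581 genes tested, with the log2 of its mean CPM over both groups on the horizontal axis and its log2 fold change, IL_TNF_6h over IL_6h, on the vertical axis; orange points are 1108 raised genes, blue points 1089 lowered genes and grey points 13384 genes not called. Rises reach further from 0 than falls among genes above 10 CPM, from 5.70 for Vcam1 to -4.18 for Retnla.

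Genes of the NF-kB system rose together. Of 21 tested genes of NF-kB subunits and inhibitors, 15 rose and 2 fell, against 7.11% and 6.99% of all genes, and the median log2 fold change of the list was 0.893. These shares over all genes are the base for the counts of every list below. Nfkbia, which encodes the inhibitor IkB-alpha (ENSMUSG00000021025, chromosome 12, 55489409 to 55492647 in GRCm38.p6), had 120.5, 107 and 111 CPM in IL_6h and 366, 366 and 328 CPM in IL_TNF_6h. All 3 libraries with TNF were higher than all 3 without it (log2 fold change 1.65 ± 0.12, adjusted p 7.14e-09). Tnfaip3, which encodes A20, a ubiquitin-editing enzyme that ends TNF receptor signalling (ENSMUSG00000019850, chromosome 10, 19000910 to 19015410), went from 72.0, 72.3 and 65.4 to 241, 239.9 and 246 CPM (log2 fold change 1.79 ± 0.15, adjusted p 4.64e-08). Both inhibitors thus moved without overlap between groups, in the libraries that stand apart as in the others. Nfkbie, another IkB protein, rose by 2.04 on the log2 scale, Nfkbiz, the nuclear IkB protein IkB-zeta, by 1.92, and Bcl3, a nuclear cofactor of p50 and p52 subunits, by 1.67. The precursor of p52, Nfkb2, rose by 1.38, its partner Relb by 1.33, the precursor of p50, Nfkb1, by 0.89, and the subunits Rel and Rela by 0.69 and 0.69. Ikbke, the IkB kinase epsilon, had 192, 159 and 197 CPM in IL_6h and 564, 559.6 and 447 CPM in IL_TNF_6h (log2 fold change 1.52 ± 0.12). The 2 members that fell were Otulin, a deubiquitinase of linear ubiquitin chains (-0.60), and Zc3h12a, an RNase that degrades inflammatory mRNAs (-0.37). Tnip2, Cyld, Zfp36 and Map3k8 were not called, with log2 fold changes between -0.06 and 0.51. The call of Rel was lost without IL_6h replicate 1 or 3 or IL_TNF_6h replicate 3, and that of Zc3h12a without any of these or IL_TNF_6h replicate 2.

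Among 19 genes of TNF receptors, adaptors and ligands, 9 rose and 0 fell (median 0.584). Tnf itself (ENSMUSG00000024401, chromosome 17, 35199367 to 35202007) had 30.7, 26.9 and 23.2 CPM in IL_6h and 218, 220.4 and 197 CPM in IL_TNF_6h, 7.88-fold more with TNF added (log2 fold change 2.98 ± 0.16, adjusted p 1.05e-10). The lowest library with TNF lay far above the highest without it. Tnfrsf1b, which encodes TNFR2 (ENSMUSG00000028599, chromosome 4, 145212368 to 145246870), rose from 1123, 1013 and 1068 to 1922, 1769 and 1687 CPM (log2 fold change 0.75 ± 0.12, adjusted p 1.29e-04), whereas Tnfrsf1a, which encodes TNFR1, was not called (0.02 ± 0.13). Traf1, an adaptor of TNF receptors, went from 34.3, 26.1 and 32.5 to 209, 196 and 169.6 CPM (log2 fold change 2.63 ± 0.12). Fas, a death receptor of the family, went from 7.58, 10.2 and 7.58 to 32.6, 32.2 and 46.0 CPM (2.13 ± 0.15), and Tnfaip2, a TNF-induced cytoplasmic protein, from 443, 338 and 391 to 1811, 1713 and 1540.0 CPM (2.11 ± 0.15). The costimulatory receptor Cd40 rose by 2.43, the adaptors Traf2 and Traf3 by 1.09 and 0.58, and the ligand Tnfsf9 by 1.38. The adaptors Tradd and Ripk1, which join TNFR1 to its downstream kinases, were not called (log2 fold changes 0.02 and -0.12).

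**Figure D3:**
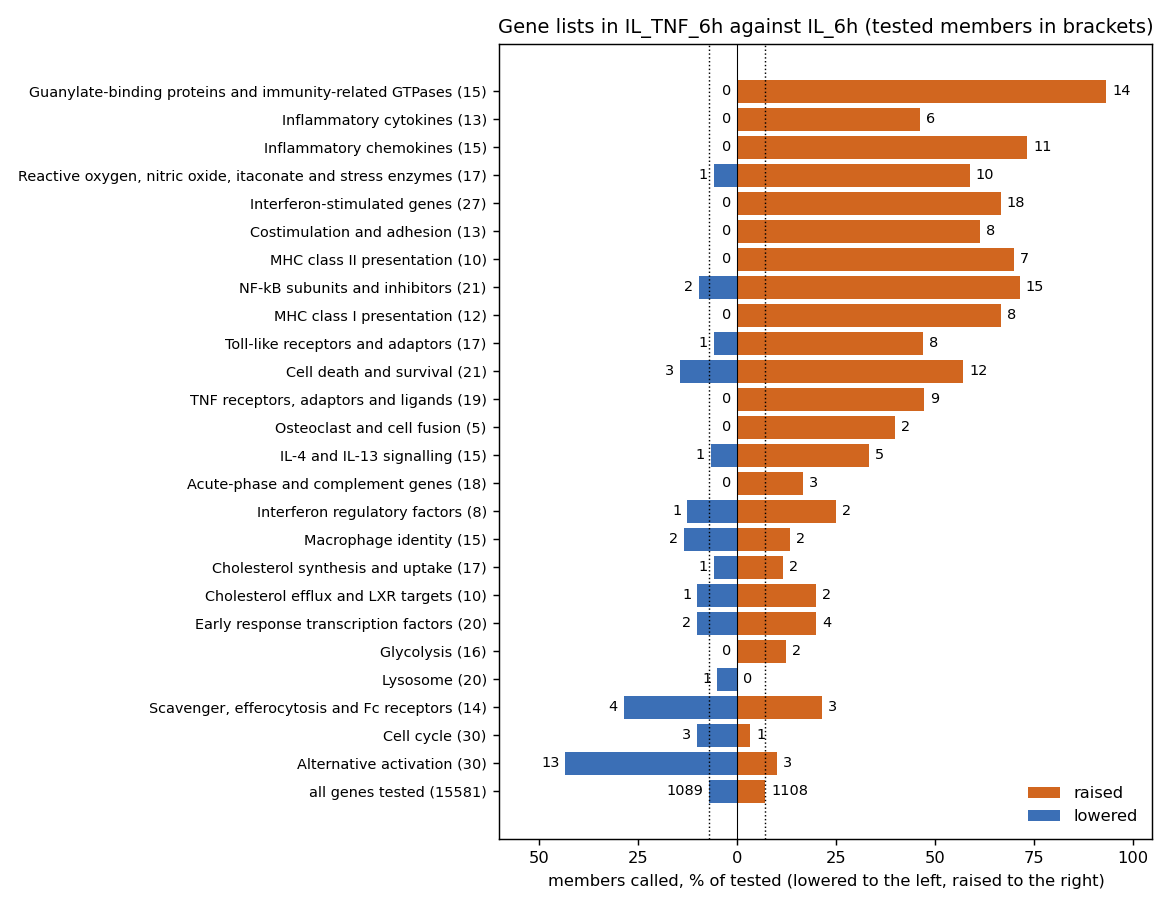
Bars give the share of tested members of each gene list that was raised (to the right, orange) or lowered (to the left, blue) in IL_TNF_6h against IL_6h, in percent, with the number of members at each bar's end and tested members in brackets; dotted lines mark the shares over all genes tested, and lists are ordered by median log2 fold change. The guanylate-binding protein list reaches furthest to the right (14 of 15 raised) and alternative activation furthest to the left (13 of 30 lowered).

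Of 13 inflammatory cytokine genes tested, 6 rose and 0 fell, with a median log2 fold change of 1.751. Il1b, which encodes interleukin 1 beta (ENSMUSG00000027398, chromosome 2, 129364569 to 129371164), had 2.17, 2.47 and 2.27 CPM in IL_6h and 17.6, 14.4 and 19.4 CPM in IL_TNF_6h. The groups did not overlap (log2 fold change 2.89 ± 0.41, adjusted p 3.38e-05). Il1rn, the antagonist of the interleukin 1 receptor, also rose, from 40.9, 47.5 and 45.5 to 148, 133 and 169.6 CPM (log2 fold change 1.75 ± 0.13). Csf1, which encodes M-CSF, went from 11.6, 12.5 and 12.1 to 60.7, 56.2 and 54.5 CPM (2.25 ± 0.21). Il27, a subunit of interleukin 27, went from 0.707, 0.754 and 0.977 to 5.04, 4.26 and 3.98 CPM (2.45 ± 0.32), and Il15, a growth factor of T and NK cells, from 8.97, 10.9 and 7.50 to 26.7, 31.4 and 34.0 CPM (1.75 ± 0.22). Il15ra, which presents interleukin 15 to other cells, rose by 1.75. Il6 and Il1a had log2 fold changes of 2.61 ± 1.21 and 2.67 ± 0.90 and were not called, and neither was Il10, an anti-inflammatory cytokine (-1.03 ± 0.34).

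The inflammatory chemokines were among the lists with the highest share of rises: 11 of 15 rose and 0 fell (median 1.474). Cxcl3, a ligand of the neutrophil receptor CXCR2 (ENSMUSG00000029379, chromosome 5, 90786101 to 90788093), had 0.574, 0.686 and 0.776 CPM in IL_6h and 17.9, 17.4 and 22.5 CPM in IL_TNF_6h, the largest rise of the list (log2 fold change 4.82 ± 0.60, adjusted p 9.69e-06). Cxcl2, another CXCR2 ligand, had 7.75, 7.45 and 8.79 CPM in IL_6h and 76.2, 80.8 and 84.3 CPM in IL_TNF_6h (log2 fold change 3.33 ± 0.12, adjusted p 7.76e-13). Both were low in every IL_6h library and high in every IL_TNF_6h library. Cxcl10, a ligand of CXCR3, a chemokine receptor of T cells (ENSMUSG00000034855, chromosome 5, 92346638 to 92348889), had 2.78, 4.87 and 2.50 CPM in IL_6h and 55.7, 54.5 and 60.4 CPM in IL_TNF_6h (log2 fold change 4.06 ± 0.61, adjusted p 1.29e-04). Cxcl11, also a CXCR3 ligand, rose by 3.38 and Cxcl1 by 2.41. The monocyte attractant Ccl12 rose by 2.99, while its relatives Ccl2 and Ccl7 were not called (0.30 ± 0.13 and 0.21 ± 0.26). Ccl9, a CCR1 ligand, rose from 883, 1209 and 1033 to 2039, 2268 and 2892 CPM, Ccl3, Ccl4 and Ccl5 by 0.97, 1.02 and 1.57, and Cxcl16, a membrane-bound chemokine that also takes up oxidised lipoprotein, by 1.03. The call of Ccl12 was lost without both libraries that stand apart (log2 fold change 2.84, adjusted p 0.0528), which left 10 of 15.

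Promoters of 3 genes are shown because they carry motifs of the transcription factors that TNF and the interleukins use, in a pair of chemokines that rose and in the gene with the largest fall named. Each runs from 250 bases before to 50 bases after the RefSeq start in GRCm38.p6, 300 bases in all, 5′ to 3′ on the strand of the gene. Capitals mark matches to GGGA, any 4 bases and CC, a form of the kB motif bound by NF-kB, in Cxcl3 and Cxcl10, and a match to TTC, any 4 bases and GAA, a form of the motif bound by STAT6, in Retnla. Both strands were searched.

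Cxcl3, chr5:90785851-90786150, plus strand: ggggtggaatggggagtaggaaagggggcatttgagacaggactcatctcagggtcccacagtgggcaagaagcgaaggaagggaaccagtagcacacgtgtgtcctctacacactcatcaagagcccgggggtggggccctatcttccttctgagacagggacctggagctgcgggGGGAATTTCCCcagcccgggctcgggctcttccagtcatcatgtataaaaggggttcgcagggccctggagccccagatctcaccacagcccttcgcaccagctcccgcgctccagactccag

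Cxcl10, chr5:92348840-92349139, minus strand: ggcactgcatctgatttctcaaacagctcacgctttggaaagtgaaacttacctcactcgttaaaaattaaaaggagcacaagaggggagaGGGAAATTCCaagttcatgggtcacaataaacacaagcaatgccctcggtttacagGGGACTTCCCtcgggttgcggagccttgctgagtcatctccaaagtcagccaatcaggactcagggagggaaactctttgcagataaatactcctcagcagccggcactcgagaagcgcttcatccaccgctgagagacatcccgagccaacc

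Retnla, chr16:48842359-48842658, plus strand: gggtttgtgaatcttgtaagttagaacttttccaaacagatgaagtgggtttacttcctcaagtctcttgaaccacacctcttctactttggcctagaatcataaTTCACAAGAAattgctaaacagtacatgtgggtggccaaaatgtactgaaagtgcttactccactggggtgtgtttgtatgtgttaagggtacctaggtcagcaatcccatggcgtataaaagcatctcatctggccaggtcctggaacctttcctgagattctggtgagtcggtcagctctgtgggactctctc

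The kB matches of Cxcl3 overlap each other. The Cxcl10 promoter also holds a match to GAAA, any 2 bases and GAAA, a form of the interferon response element, left in lower case. Of 32851 promoters in the RefSeq table, 20.7% held the kB motif, 6.95% the STAT6 motif and 3.44% the interferon response element, each on either strand. The next shares are also of promoters, of which a gene may have several. They cover genes matched to the table, 849 of 1108 raised and 825 of 1089 lowered. Among promoters of tested genes 26.2% held the kB motif, with 27.7% for raised genes, 27.8% for lowered genes and 25.9% for genes not called. The share was thus nearly the same for genes that rose and genes that fell. The interferon response element was found in 6.58% of promoters of raised genes and 10.5% for genes raised at least 4-fold. Its share was 2.22% for lowered genes and 3.0% for genes not called. The STAT6 motif was found in 4.48% of promoters of raised genes, 6.13% for lowered genes and 8.22% for genes lowered at least 2-fold. Its share was 7.02% for genes raised at least 4-fold, against 5.62% for genes not called. Of the 30 genes with the largest changes, described next, 18 were matched to the table. The lowered ones among these were only Retnla, Msx3, Hpgd, Zfyve28, Rasgrp3 and Cd300lf, and the rest were raised. Counts for rises and falls therefore have unequal bases. Among the 18 matched genes the kB motif was found in 4 that rose and 0 that fell. The STAT6 motif was found in 3 that rose (Apol7c, Ptges and Ccl17) and 1 that fell (Retnla). A match is a run of letters and not a measured binding site, and these shares were not tested.

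By a rule of size, the 15 raised and 15 lowered protein-coding genes with the largest log2 fold changes were taken, provided that the gene was called, that its groups did not overlap, and that the group with more of it had 10 CPM or above. Vcam1, the adhesion molecule that binds the integrin VLA-4 on leukocytes (ENSMUSG00000027962, chromosome 3, 116110020 to 116129688), had 0.530, 0.571 and 0.172 CPM in IL_6h and 22.4, 20.8 and 25.3 CPM in IL_TNF_6h. It was below 1 CPM in every library without TNF (log2 fold change 5.70 ± 0.50, adjusted p 1.53e-07). Fscn1, which encodes fascin, a protein that bundles actin in the protrusions of mature dendritic cells, had 0.442, 0.594 and 0.718 CPM in IL_6h and 21.5, 19.9 and 16.1 CPM in IL_TNF_6h (log2 fold change 5.04 ± 0.75, adjusted p 1.05e-04). Clec4e, which encodes Mincle, a receptor for mycobacterial glycolipid (ENSMUSG00000030142, chromosome 6, 123281789 to 123289871), had 40.3, 49.8 and 47.7 CPM in IL_6h and 830.0, 838 and 1042 CPM in IL_TNF_6h (log2 fold change 4.30 ± 0.29, adjusted p 3.07e-09). Clec4e was already expressed in IL_6h, and the libraries that stand apart lay close to their groups.

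Lad1, which encodes ladinin, a filament-anchoring protein, went from 6.85, 5.67 and 6.58 to 168, 153 and 128 CPM (log2 fold change 4.55 ± 0.41), Efna2, the ephrin-A2 ligand of Eph receptors, from 0.795, 1.17 and 1.09 to 23.2, 24.4 and 16.6 CPM (4.39 ± 0.58), and Apol7c, of the apolipoprotein L family, from 12.7, 12.4 and 11.3 to 228, 223 and 241 CPM (4.25 ± 0.33). Of the matrix metalloproteases, Mmp9, a secreted gelatinase, went from 1.502, 1.33 and 1.18 to 25.1, 18.4 and 18.9 CPM (3.95 ± 0.41) and Mmp25, anchored in the membrane, from 0.729, 0.869 and 0.948 to 13.3, 12.5 and 8.85 CPM (3.76 ± 0.88). All of these had no overlap between groups, which the rule of size required. Without both libraries that stand apart, the log2 fold change of Mmp25 was 3.96 and its adjusted p 0.0548.

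**Figure D4:**
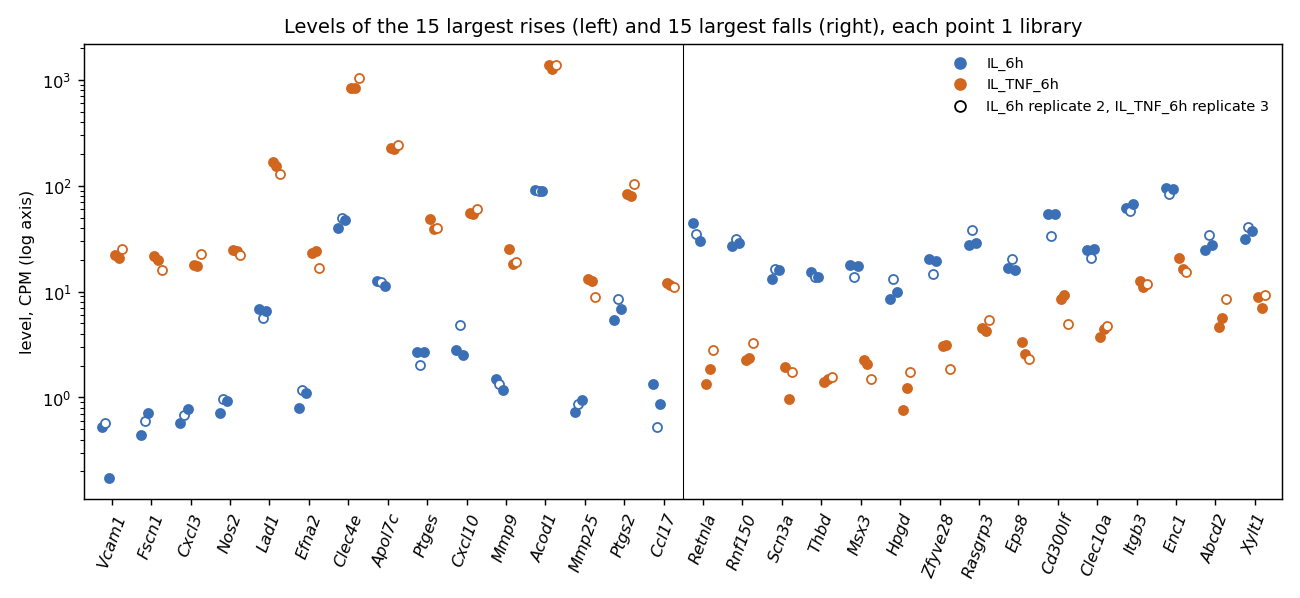
Each point is the level of 1 library in CPM, on a log axis, for the 15 genes with the largest rises (left) and the 15 with the largest falls (right) by the rule of size; blue points are IL_6h, orange points IL_TNF_6h, and open points the libraries that stand apart, IL_6h replicate 2 and IL_TNF_6h replicate 3. No blue point overlaps an orange point of the same gene, which the rule of size required. Open points lie near the filled points of their group, for example 89.1 CPM of Acod1 in IL_6h replicate 2 beside 92.2 and 90.1 CPM.

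Genes of costimulation and adhesion rose in 8 of 13 cases with 0 falls (median 1.049). Icosl, which encodes the ligand of the T cell costimulator ICOS (ENSMUSG00000000732, chromosome 10, 78069368 to 78079525), had 4.82, 4.73 and 5.89 CPM in IL_6h and 61.7, 62.7 and 62.1 CPM in IL_TNF_6h, 12.1-fold higher (log2 fold change 3.60 ± 0.17, adjusted p 3.77e-11). Its libraries with TNF lay within a narrow range, far above those without. Icam1, the ligand of the integrin LFA-1, went from 283, 187 and 253 to 1298, 1279 and 1006 CPM (2.31 ± 0.16), and Itga4, the alpha chain of VLA-4 and so a partner of Vcam1, from 41.0, 81.0 and 55.3 to 193, 218 and 317 CPM (2.04 ± 0.22). Itgal, the alpha chain of LFA-1, rose by 1.43, Itgax, which encodes CD11c, by 1.05, and Cd274, which encodes the inhibitory ligand PD-L1, by 1.05. The classical costimulators Cd80 and Cd86 were not called (log2 fold changes -0.02 ± 0.26 and -0.05 ± 0.32).

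Enzymes that make small mediators had large rises: of 17 genes for reactive oxygen, nitric oxide, itaconate and stress enzymes, 10 rose and 1 fell (median 1.249). Acod1, which makes itaconate from an intermediate of the citric acid cycle (ENSMUSG00000022126, chromosome 14, 103047012 to 103056573), had 92.2, 89.1 and 90.1 CPM in IL_6h and 1382, 1266 and 1393 CPM in IL_TNF_6h (log2 fold change 3.90 ± 0.20, adjusted p 5.85e-11). Nos2, the inducible nitric oxide synthase, which uses the same amino acid as arginase 1 (ENSMUSG00000020826, chromosome 11, 78920787 to 78960226), had 0.707, 0.960 and 0.919 CPM in IL_6h and 24.9, 23.9 and 22.0 CPM in IL_TNF_6h (log2 fold change 4.78 ± 0.73, adjusted p 1.64e-04). Gch1, which makes the cofactor that Nos2 needs, went from 25.7, 20.2 and 23.1 to 78.5, 73.2 and 66.7 CPM (1.66 ± 0.16). Nos2 was below 1 CPM in all libraries without TNF. Sod2, the mitochondrial superoxide dismutase, rose from 84.2, 89.9 and 85.2 to 389.7, 385 and 434 CPM (2.22 ± 0.13). Within the phagocyte oxidase, the membrane subunit Cybb rose by 1.51, and Cyba, Ncf1 and Ncf4 were not called.

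Prostaglandin enzymes changed in both directions. Ptgs2, the inducible cyclooxygenase COX-2, had 5.37, 8.59 and 6.81 CPM in IL_6h and 83.4, 80.0 and 104 CPM in IL_TNF_6h (log2 fold change 3.68 ± 0.56, adjusted p 1.48e-04). Ptges, which makes prostaglandin E2 from the product of the cyclooxygenases (ENSMUSG00000050737, chromosome 2, 30889471 to 30931020), had 2.69, 2.01 and 2.67 CPM in IL_6h and 48.8, 39.0 and 40.1 CPM in IL_TNF_6h (log2 fold change 4.12 ± 0.30, adjusted p 5.87e-09). The constitutive cyclooxygenase Ptgs1 fell, from 268, 248 and 256 to 117, 112 and 111 CPM (log2 fold change -1.19 ± 0.12, adjusted p 9.35e-07), as did Hpgd (ENSMUSG00000031613, chromosome 8, 56294552 to 56321046), the enzyme that begins the breakdown of prostaglandins. Hpgd had 8.59, 13.0 and 9.86 CPM in IL_6h and 0.768, 1.24 and 1.75 CPM in IL_TNF_6h (log2 fold change -3.05 ± 0.23, adjusted p 1.003e-08). In all 4 genes the libraries with TNF lay on 1 side of those without, which the rules that named them required.

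Among 30 tested genes of alternative activation, 13 fell and 3 rose, against 6.99% and 7.11% of all genes, with a median log2 fold change of -0.571. Retnla, a secreted protein of the resistin family (ENSMUSG00000061100, chromosome 16, 48842609 to 48844461), had 44.7, 35.1 and 30.3 CPM in IL_6h and 1.34, 1.85 and 2.83 CPM in IL_TNF_6h (log2 fold change -4.18 ± 0.47, adjusted p 2.70e-05). It was the largest fall named, and the highest level with TNF was far below the lowest without it. Arg1, which encodes arginase 1 (ENSMUSG00000019987, chromosome 10, 24915207 to 24927470), had 241, 232 and 271 CPM in IL_6h and 68.2, 58.8 and 67.8 CPM in IL_TNF_6h (log2 fold change -1.93 ± 0.23, adjusted p 4.12e-06), so 58.8 to 68.2 CPM remained. Chil3, the chitinase-like protein Ym1, went from 17.4, 19.2 and 15.9 to 6.404, 6.47 and 7.84 CPM (log2 fold change -1.34 ± 0.27, adjusted p 0.00203), and Mrc1, the mannose receptor, from 964, 1191 and 975 to 578, 552 and 724 CPM (log2 fold change -0.76 ± 0.15, adjusted p 0.00125). The galactose-binding lectins Clec10a and Mgl2, which are close copies of each other and may share reads, fell by 2.45 and 2.10 on the log2 scale. Clec10a had 24.5, 20.9 and 25.1 CPM in IL_6h and 3.70, 4.40 and 4.75 CPM in IL_TNF_6h.

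Transcription factors of the programme also fell. Klf4 fell by 1.32 on the log2 scale, Pparg, a nuclear receptor for fatty acids, by 1.26, Myc by 0.79, and Irf4 by 1.10. The call of Irf4 was lost without both libraries that stand apart (adjusted p 0.121) and without single libraries, namely IL_6h replicate 2, IL_TNF_6h replicate 1 or IL_TNF_6h replicate 2. Egr2, another factor that the interleukins induce, was not called (-0.15 ± 0.15). Atp6v0d2, a proton pump subunit of fusing macrophages, and Matk, a kinase, fell by 0.77 and 1.24.

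The 3 members that rose were the chemokines Ccl17 and Ccl22, which both bind CCR4 on type 2 helper T cells, and Il4i1, an amino acid oxidase. Ccl17 (ENSMUSG00000031780, chromosome 8, 94809380 to 94812038) had 1.35, 0.526 and 0.862 CPM in IL_6h and 12.2, 11.4 and 11.1 CPM in IL_TNF_6h (log2 fold change 3.66 ± 0.33, adjusted p 3.09e-07). Ccl22 (ENSMUSG00000031779, chromosome 8, 94745684 to 94751388) had 9.01, 9.03 and 8.10 CPM in IL_6h and 84.6, 79.9 and 75.3 CPM in IL_TNF_6h (log2 fold change 3.20 ± 0.20, adjusted p 8.84e-10). In both, the lowest library with TNF was several times the highest without it. Il4i1 rose by 1.38. Of the 14 members not called, Slc7a2, which imports arginine, had 489, 793 and 614 CPM in IL_6h and 698, 699 and 929 CPM in IL_TNF_6h (log2 fold change 0.29 ± 0.21, adjusted p 0.488), and Ccl24, a chemokine of eosinophils, had 1.94, 1.97 and 1.95 CPM in IL_6h and 2.28, 1.44 and 1.87 CPM in IL_TNF_6h (log2 fold change -0.08 ± 0.31, adjusted p 0.947). The direction of Ccl24 turned without IL_TNF_6h replicate 2, to a log2 fold change of 0.08. Pdcd1lg2, which encodes PD-L2, Tgm2, a transglutaminase, and Fn1, fibronectin, were also not called (log2 fold changes 0.09 ± 0.33, -0.13 ± 0.15 and -0.49 ± 0.43).

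Set beside untreated cells, Arg1 was at 0.0356 ± 0.0617 CPM in Ctrl_0h, 248 ± 20.1 CPM in IL_6h and 65.0 ± 5.35 CPM in IL_TNF_6h (mean ± SD, n = 3). In the same order Chil3 was at 0.0902 ± 0.156, 17.5 ± 1.66 and 6.91 ± 0.810 CPM, and Mrc1 at 161 ± 31.5, 1043 ± 128 and 618 ± 93.0 CPM. All 3 genes thus lay between the other groups when TNF was added. IL_6h differed from Ctrl_0h in 64.3% of genes tested, a difference that also holds 6 h in culture and a change between sets of libraries: Xist had between 562 and 1010 CPM in IL_6h and IL_TNF_6h and between 162 and 283 CPM in the 9 libraries without interleukins. The interleukins cannot be told apart from these, and the comparison uses the same libraries of IL_6h, so values are set side by side only.

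Of 15 tested genes of IL-4 and IL-13 signalling, 5 rose and 1 fell (median 0.337). Il4ra, the receptor chain that both interleukins use (ENSMUSG00000030748, chromosome 7, 125552271 to 125579474), was not called (log2 fold change 0.08 ± 0.15, adjusted p 0.847), and the sign of its value turned without IL_6h replicate 2 (-0.05) or IL_TNF_6h replicate 1 (-0.03). Its partner chains rose: Il13ra1 went from 1.81, 3.93 and 2.61 to 11.4, 10.5 and 13.2 CPM (2.07 ± 0.25) and Il2rg, the common gamma chain, from 93.8, 75.5 and 89.0 to 163, 144 and 125 CPM (0.74 ± 0.13). The receptor kinase Jak2 rose from 93.2, 129 and 97.5 to 261, 275 and 338 CPM (1.45 ± 0.16) and Tyk2 by 0.87, while Jak1, Jak3 and Stat6 were not called (log2 fold changes 0.01 ± 0.14, 0.33 ± 0.19 and -0.13 ± 0.13). Socs3, an inhibitor of JAK kinases best known from interleukin 6 signalling (ENSMUSG00000053113, chromosome 11, 117966079 to 117970336), had 11.4, 7.70 and 9.77 CPM in IL_6h and 90.7, 90.1 and 57.5 CPM in IL_TNF_6h (log2 fold change 3.05 ± 0.35, adjusted p 4.26e-06). Socs1, the inhibitor that acts on the IL-4 pathway, had 55.3, 38.1 and 36.4 CPM in IL_6h and 73.5, 76.5 and 54.6 CPM in IL_TNF_6h (log2 fold change 0.66 ± 0.34, adjusted p 0.272) and was not called; it was called with limma voom and quality weights, and without a filter on low counts. Ptpn1, a phosphatase that acts on JAK kinases, was the member that fell (-0.48 ± 0.11).

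Interferon-stimulated genes rose in 18 of 27 cases with 0 falls (median 1.191). Mx1, an antiviral GTPase, had 16.1, 23.8 and 17.6 CPM in IL_6h and 80.3, 93.2 and 94.1 CPM in IL_TNF_6h (log2 fold change 2.22 ± 0.39, adjusted p 6.06e-04). Rsad2, which encodes viperin, rose by 2.68, Ifit2 by 2.49, Ifit1 by 2.39, and Cmpk2, the neighbour of Rsad2, by 2.34. Parp14, an ADP-ribosyltransferase, went from 223, 285 and 238 to 786, 790.2 and 958 CPM (log2 fold change 1.76 ± 0.25, adjusted p 3.63e-05). Usp18, which removes ISG15 from proteins and inhibits the interferon receptor, rose by 0.89. Ifnb1, the interferon beta gene, was not called (1.53 ± 1.14), and neither were Ifit3 (2.03 ± 0.68), Oas1a, Oas2 or Oas3. Without both libraries that stand apart the list's median was 1.230 and 9 genes were called as raised in place of 18. Ifit1 and Ifit2 were among those lost (adjusted p 0.0817 and 0.116). Leaving out single libraries also ended these calls, that of Ifit1 without IL_6h replicate 1 or 3 or IL_TNF_6h replicate 3, and that of Ifit2 without any 1 IL_6h library or IL_TNF_6h replicate 2 or 3.

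Of the guanylate-binding proteins and immunity-related GTPases, which attack the vacuoles of intracellular microbes, 14 of 15 rose and 0 fell (median 2.031). Gbp5 had 0.0442, 0.137 and 0.0575 CPM in IL_6h and 2.85, 1.70 and 1.22 CPM in IL_TNF_6h (log2 fold change 4.52 ± 0.59, adjusted p 2.78e-05). Gbp2 had 26.6, 36.2 and 26.6 CPM in IL_6h and 303, 303 and 367 CPM in IL_TNF_6h (log2 fold change 3.44 ± 0.19, adjusted p 2.86e-10), and Gbp3 and Gbp7 rose by 3.22 and 2.69. In all 4 genes no library with TNF overlapped one without, which the rule that named them required. The immunity-related GTPases Iigp1, Irgm2, Igtp and Irgm1 rose by 2.65, 1.30, 1.36 and 0.99. Members of these families are close copies of each other (Tgtp1 and Tgtp2 among them), and reads may have been divided between them. Without both libraries that stand apart, 6 of 15 were called and the median was 2.079. Iigp1, Irgm2, Igtp and Irgm1 were among those lost (adjusted p 0.0631, 0.117, 0.0609 and 0.0831). Iigp1 was also not called without IL_6h replicate 1 or 3, Irgm1 without these or IL_TNF_6h replicate 3, and Irgm2 without any 1 IL_6h library or IL_TNF_6h replicate 2 or 3. Irf1, a transcription factor of the interferon response, rose from 161, 122 and 153 to 513, 474 and 406 CPM (log2 fold change 1.67 ± 0.23, adjusted p 2.67e-05), and Irf5 by 0.48, though Irf5 was not called without IL_6h replicate 2 or 3 or IL_TNF_6h replicate 1 or 2. Irf7, Irf8 and Irf9 were not called (log2 fold changes 0.16 ± 0.48, -0.02 ± 0.16 and 0.36 ± 0.14).

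Antigen presentation genes rose in both classes. In class I, 8 of 12 rose (median 0.742), with the transactivator Nlrc5 (from 33.8, 28.8 and 32.8 to 112, 116 and 87.1 CPM, 1.72 ± 0.20), the peptide transporters Tap1 and Tap2 (1.08 and 1.35) and the proteasome activator Psme2 (1.31). H2-K1, H2-D1 and B2m, the chains of the molecule itself, were not called (0.44 ± 0.20, 0.24 ± 0.19 and 0.23 ± 0.14). Without both libraries that stand apart 5 of 12 rose. In class II, 7 of 10 rose (median 0.896): the transactivator Ciita (from 83.0, 61.5 and 82.8 to 188, 185 and 153 CPM, log2 fold change 1.21 ± 0.18, adjusted p 7.38e-05), the chains H2-Ab1, H2-Aa and H2-Eb1 (1.26, 0.78 and 1.01), the invariant chain Cd74 (0.65), and H2-DMb1 and H2-Oa (0.74 and 1.89). H2 genes are a family of similar sequences, with the same limit on reads. All 3 libraries with TNF were above all 3 without it for H2-Ab1, which had 530.3, 238 and 449 CPM in IL_6h and 1147, 1143 and 627 CPM in IL_TNF_6h. H2-Ab1 was named with its values under a rule that required no overlap.

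Receptors for microbial products changed unevenly. Of 17 Toll-like receptor and adaptor genes, 8 rose and 1 fell (median 0.734). Tlr2, which binds bacterial lipoproteins, had 65.5, 66.5 and 69.6 CPM in IL_6h and 379, 351 and 394 CPM in IL_TNF_6h (log2 fold change 2.48 ± 0.12, adjusted p 3.77e-11). Cd14, a coreceptor for lipopolysaccharide, went from 153, 112 and 153 to 478, 412 and 366 CPM (1.59 ± 0.13), while Tlr4, the lipopolysaccharide receptor, and its partner Ly96 were not called (-0.38 ± 0.18 and 0.15 ± 0.23). The adaptor Myd88 rose by 0.79 and Irak3, an inhibitor of its signal, by 1.01. Tlr13, which binds bacterial ribosomal RNA, fell by 0.81 on the log2 scale.

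Of 14 scavenger, efferocytosis and Fc receptor genes, 4 fell and 3 rose (median -0.285). Mertk, a receptor for the uptake of dying cells (ENSMUSG00000014361, chromosome 2, 128698915 to 128803162), had 32.0, 35.0 and 31.4 CPM in IL_6h and 11.0, 8.56 and 11.4 CPM in IL_TNF_6h (log2 fold change -1.67 ± 0.16, adjusted p 3.51e-07). Its relative Axl rose by 0.67, and Timd4, a receptor for phosphatidylserine, went from 1.30, 1.35 and 1.49 to 12.4, 9.27 and 11.0 CPM (2.98 ± 0.45). Cd163, a haemoglobin scavenger, and Scarb1, a lipoprotein receptor, fell by 2.39 and 0.52 on the log2 scale. Msr1, the scavenger receptor A, rose by 1.04, and Fcgr3, an activating Fc receptor, had 263, 261 and 259 CPM in IL_6h and 143, 120.1 and 155 CPM in IL_TNF_6h, a fall (-0.91 ± 0.12). Axl was not called without IL_6h replicate 3 or IL_TNF_6h replicate 1 or 2. Receptors that take up dying cells thus included genes that rose and genes that fell.

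Among 21 genes of cell death and survival, 12 rose and 3 fell (median 0.732). The inhibitors of death that rose included Bcl2a1b, a member of a family of copies that share reads (2.33), Birc3, a ubiquitin ligase at the TNF receptor (from 87.8, 98.8 and 88.6 to 244, 252 and 299 CPM, 1.53 ± 0.14), and Cflar, which blocks caspase 8 (1.42). Nlrp3, the sensor of an inflammasome, had 38.7, 33.0 and 40.3 CPM in IL_6h and 217, 214 and 199 CPM in IL_TNF_6h (log2 fold change 2.49 ± 0.21, adjusted p 6.21e-08). Gsdmd, which forms the pores of pyroptosis, rose by 0.96, Casp1 and Casp4 by 0.99 and 1.38, and Mlkl, which carries out necroptosis, by 1.00. Genes that fell included Ripk3, the kinase upstream of Mlkl (-0.67), and the death-promoting Bcl2l11 (-0.54). Casp8 was not called (-0.12 ± 0.16).

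Complement and acute-phase genes rose in 3 of 18 cases and fell in 0 (median 0.301), against 7.11% and 6.99% of all genes. C3, the central complement component, had 842, 591 and 844 CPM in IL_6h and 3082, 2949 and 2232 CPM in IL_TNF_6h (log2 fold change 1.86 ± 0.17, adjusted p 1.93e-07). Saa3, a serum amyloid protein, went from 48.6, 28.9 and 44.2 to 84.3, 76.9 and 59.6 CPM (log2 fold change 0.86 ± 0.26, adjusted p 0.0326), and C1ra rose by 0.49. The calls of Saa3 and C1ra were lost without both libraries that stand apart (adjusted p 0.115 and 0.0768), which left 1 of 18, and without single libraries: Saa3 without IL_6h replicate 2 or 3 or IL_TNF_6h replicate 1 or 2, and C1ra without IL_6h replicate 2 or 3 or IL_TNF_6h replicate 2. Without both libraries that stand apart 907 of 15581 genes rose, so 1 of 18 is near the share over all genes. C1qa, C1qb and C1qc, the chains of C1q, were not called.

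Other lists moved little. Over all genes 7.11% rose and 6.99% fell, and counts of so few members are not read as results about these lists. Of 15 macrophage identity genes, 2 rose and 2 fell (median 0.043), and Csf1r, the M-CSF receptor, Adgre1, which encodes F4/80, Cd68 and Lyz2 were not called (0.04 ± 0.13, 0.12 ± 0.15, -0.03 ± 0.14 and 0.02 ± 0.12). Within that list the transcription factor Cebpa fell, from 516, 224 and 336 to 130.2, 125 and 66.1 CPM (log2 fold change -1.74 ± 0.29, adjusted p 2.98e-04). The factor Cebpb rose by 1.28 and was not called without both libraries that stand apart (adjusted p 0.0674) or without single libraries, namely IL_6h replicate 2 or 3 or IL_TNF_6h replicate 1 or 2. In that list 1 gene rose without both libraries that stand apart. Of 20 lysosome genes 0 rose and 1 fell, the protease Ctsl (-0.55 ± 0.13), and of 16 glycolysis genes 2 rose, Slc2a1, the glucose transporter GLUT1 (0.66), and Pfkl (0.87). The median was close to 0 in these lists, and most of their genes were not called.

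In lipid metabolism, cholesterol synthesis and uptake had 2 rises and 1 fall among 17 genes (median 0.038), against 7.11% and 6.99% of all genes. Idi1, an isomerase of the pathway, rose by 0.58, and was not called without IL_6h replicate 1 or 3 or IL_TNF_6h replicate 2 or 3. The list had 1 rise without both libraries that stand apart. Dhcr7, the last enzyme of cholesterol synthesis, had 24.6, 18.2 and 20 CPM in IL_6h and 11.9, 11.5 and 10.3 CPM in IL_TNF_6h (log2 fold change -0.90 ± 0.16, adjusted p 3.55e-04). Of 10 genes of cholesterol efflux and LXR targets, 2 rose and 1 fell (median 0.012): the LXR-alpha gene Nr1h3 went from 116, 70.2 and 109.9 to 345, 332 and 238 CPM (1.63 ± 0.23), the exporter Abca1 from 72.8, 88.4 and 74.8 to 220.5, 203 and 225 CPM (1.46 ± 0.17), and Scd2, a fatty acid desaturase, from 26.0, 31.6 and 26.1 to 13.0, 11.9 and 14.8 CPM (-1.08 ± 0.19), while Abcg1 and Apoe were not called (-0.27 ± 0.13 and -0.08 ± 0.26). Of 30 cell cycle genes, 1 rose and 3 fell (median -0.317), against the same 7.11% and 6.99% of all genes. Mki67, a marker of dividing cells, had 22.8, 36.4 and 24.6 CPM in IL_6h and 49.4, 55.2 and 76.9 CPM in IL_TNF_6h (log2 fold change 1.11 ± 0.32, adjusted p 0.0220), and its call was lost without both libraries that stand apart (adjusted p 0.0731) and without IL_6h replicate 1 or 3 or IL_TNF_6h replicate 3. The falls were those of Pcna, the sliding clamp of DNA polymerase (-0.39), Mcm6, a subunit of the replication helicase (-0.67), and Cdt1, which loads that helicase (-0.73). Without IL_TNF_6h replicate 2 the calls of Pcna and Mcm6 were lost, without IL_6h replicate 1 that of Cdt1, and without both libraries that stand apart that of Mcm6 (adjusted p 0.0754). Top2a, Cdk1 and Plk1, which serve in mitosis, had log2 fold changes of -0.23 ± 0.45, -0.95 ± 0.35 and -0.62 ± 0.67 and were not called. Of 20 early response transcription factors, 4 rose and 2 fell (median -0.004), with Jun (-1.13 ± 0.19) and Nr4a1 (-1.08 ± 0.27) as the falls and Junb (0.85 ± 0.17), Jund (0.70 ± 0.23), Fos (0.38 ± 0.13) and Maff (1.15 ± 0.16) as the rises. Nr4a1 was not called without IL_6h replicate 1 or IL_TNF_6h replicate 2, and Jund without IL_6h replicate 2 or 3 or IL_TNF_6h replicate 1 or 2. The call of Fos was lost without both libraries that stand apart (adjusted p 0.0842) and without any 1 of the 6 libraries other than IL_TNF_6h replicate 3. Of 5 osteoclast and cell fusion genes, 2 rose (median 0.428): the phosphatase Acp5 (0.52 ± 0.13) and the fusion protein Dcstamp (0.54 ± 0.16), which was not called without IL_6h replicate 1 or 3 or IL_TNF_6h replicate 1 or 3.

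Among the other largest falls, Rnf150, a membrane ubiquitin ligase, had 26.8, 31.2 and 28.9 CPM in IL_6h and 2.25, 2.33 and 3.29 CPM in IL_TNF_6h (log2 fold change -3.46 ± 0.25, adjusted p 5.15e-09). Thbd, which encodes thrombomodulin, an anticoagulant receptor on the cell surface (ENSMUSG00000074743, chromosome 2, 148404471 to 148408188), had 15.4, 13.8 and 13.8 CPM in IL_6h and 1.40, 1.51 and 1.56 CPM in IL_TNF_6h (log2 fold change -3.27 ± 0.24, adjusted p 8.66e-09). Itgb3, the beta 3 integrin chain (ENSMUSG00000020689, chromosome 11, 104608000 to 104670476), had 62.3, 57.9 and 67.0 CPM in IL_6h and 12.5, 11.1 and 11.7 CPM in IL_TNF_6h (log2 fold change -2.40 ± 0.26, adjusted p 1.55e-06). In these 3 genes the highest library with TNF was below the lowest without it, which the rule of size required. Cd300lf, an inhibitory receptor for phospholipids, went from 54.1, 33.3 and 53.8 to 8.45, 9.32 and 4.89 CPM (-2.64 ± 0.22), and the sodium channel Scn3a from 13.1, 16.4 and 16.1 to 1.94, 0.973 and 1.73 CPM (-3.30 ± 0.34).

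Rasgrp3, an exchange factor of Ras, went from 27.9, 38.5 and 28.7 to 4.50, 4.21 and 5.39 CPM (-2.75 ± 0.16), Eps8, which links receptor kinases to actin, from 16.6, 20.3 and 16.1 to 3.36, 2.55 and 2.33 CPM (-2.69 ± 0.24), and Zfyve28, an endosomal protein, from 20.5, 14.6 and 19.6 to 3.05, 3.14 and 1.87 CPM (-2.76 ± 0.17). Abcd2, a transporter of fatty acids into peroxisomes, fell by 2.20 on the log2 scale, Enc1, an actin-binding adaptor, by 2.36 and Xylt1, which starts the sugar chains of proteoglycans, by 2.12. Msx3, a homeobox gene, had 17.8, 13.7 and 17.3 CPM in IL_6h and 2.25, 2.09 and 1.49 CPM in IL_TNF_6h (log2 fold change -3.06 ± 0.90, adjusted p 0.0308). Its groups did not overlap, as the rule of size required, but the call was lost without any 1 of the 6 libraries, and without both libraries that stand apart (adjusted p 0.199). All other genes of the largest falls kept their call under every alternative.

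Markers of other cell types were summed to see what else the cultures could hold. Macrophage identity genes summed to between 20200 and 24300 CPM in IL_6h and between 21600 and 24300 CPM in IL_TNF_6h. Sums in the 2 groups overlapped for neutrophil, stromal, endothelial, T and NK cell and dendritic cell markers, although single members could still differ. Neutrophil markers were below 1 CPM in sum, with Elane and Ly6g at 0 in all 6 libraries, and T and NK cell markers between 4.34 and 6.71 CPM, with Cd3e and Cd8a at 0. Endothelial markers summed to between 205 and 296 CPM through Vwf (103 to 186 CPM), Eng (50.2 to 108 CPM) and Kdr (25.9 to 39.4 CPM), while Cdh5, Tek and Tie1 were below 1 CPM and Emcn at 0. Of 5 endothelial genes tested, 1 was called as raised, Eng, and 0 as lowered. The call of Eng was lost without IL_6h replicate 2 or 3 or IL_TNF_6h replicate 1 or 2. Kdr was not called, but all its libraries with TNF were above those without. The groups of Vwf overlapped. Dendritic cell markers summed to between 407 and 761 CPM, mainly through Bst2, an interferon-induced gene (379 to 729 CPM), and no gene of that list was at 0 in all 6 libraries. Of 7 dendritic cell genes tested, 0 were called. Without overlap, 3 lay above and 0 below with TNF, against 12.9% and 14.2% of all genes. Among these 3, Zbtb46 went from 1.44, 2.03 and 2.50 to 5.46, 4.69 and 4.91 CPM. Stromal markers reached 15.5 CPM in IL_6h replicate 2 and 13.2 CPM in IL_TNF_6h replicate 3, the libraries that stand apart, and their part in the results was not tested. Erythroid and megakaryocyte markers summed to between 24.0 and 31.7 CPM in IL_6h and between 63.7 and 67.7 CPM in IL_TNF_6h, mainly through Pf4, a platelet chemokine (1.25). Eosinophil and mast cell markers went from between 10.7 and 15.4 to between 35.3 and 39.3 CPM through Hdc, the enzyme that makes histamine (3.39), with Mcpt4, Fcer1a and Prss34 at 0. B cell markers went from between 0.777 and 1.66 to between 3.81 and 4.86 CPM through Cd79b (2.56). Cd79b was not called without both libraries that stand apart (adjusted p 0.0867) or without IL_6h replicate 2 or 3. The last 3 sums moved mainly through 1 gene each, and their part in other results was not tested.

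The effect of TNF in the presence of the interleukins was then set against its effect without them, TNF_6h against Ctrl_0h. The difference of these effects was called for 2865 genes (18.4%), 1439 (9.24%) with a higher value in the presence of the interleukins and 1426 (9.15%) with a lower one. Ctrl_0h was sampled at 0 h, so the effect of TNF alone includes 6 h in culture. The libraries also fall into sets: Xist had between 562 and 1010 CPM in IL_6h and IL_TNF_6h, between 162 and 283 CPM in the 9 libraries without interleukins, and at most 0.145 CPM in the 24 h libraries with them, which alone had counts of Ddx3y. Ifi202b, an interferon-inducible gene, had between 30.3 and 64.1 CPM in IL_6h and IL_TNF_6h and 0 in the other 15 libraries. Each effect of TNF was measured within a set, but a difference between effects compares sets, and the interleukins and the set cannot be told apart in it. Replicate 2 of Ctrl_0h held counts in 27761 genes, against at most 20631 in any other library. Without it the difference was called for 2510 genes. Values without it are given for some genes below, while counts of genes changed by TNF alone use all libraries.

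Of 1108 genes raised in the presence of the interleukins, 801 (72.3%) were also raised by TNF alone, which is 27.4% of the 2925 genes that TNF alone raised. TNF alone raised 18.8% of all genes tested. Of 1089 genes lowered, 550 (50.5%) were also lowered by TNF alone, 17.3% of 3172, against 20.4% of all genes. TNF alone changed 39.1% of genes in all. These comparisons share no library.

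Icosl, Socs3 and Ccl22 had a larger effect of TNF in the presence of the interleukins than without them. The level of Icosl was 16.0 ± 1.42 CPM in Ctrl_0h and 13.0 ± 0.493 CPM in TNF_6h (mean ± SD, n = 3), with no call for TNF alone (log2 fold change -0.29 ± 0.16). With the interleukins it went from 5.14 ± 0.646 to 62.2 ± 0.470 CPM, and the difference between the effects was 3.89 ± 0.23 on the log2 scale (adjusted p 1.35e-09). Socs3 was at 8.82 ± 6.66 CPM in Ctrl_0h, 9.63 ± 1.23 in TNF_6h, 9.62 ± 1.84 in IL_6h and 79.4 ± 19.0 in IL_TNF_6h. Its difference was 2.91 ± 0.48 (adjusted p 2.82e-04) and 2.09 without Ctrl_0h replicate 2, called in both cases. Without that library TNF alone also raised Socs3, by 0.95 ± 0.22 on the log2 scale (adjusted p 0.00192). Ccl22 was at 0.641 ± 0.470, 1.48 ± 0.0905, 8.71 ± 0.530 and 80.0 ± 4.65 CPM in the same order, with a difference of 1.96 ± 0.34 (adjusted p 4.32e-04; 1.20 without Ctrl_0h replicate 2, adjusted p 0.00809). Ccl17 had 0 counts in all TNF_6h libraries, against 0.912 ± 0.413 CPM in IL_6h and 11.6 ± 0.544 CPM in IL_TNF_6h, so no fold is given for TNF alone, and the difference was not called (adjusted p 0.0831). Of these 4 groups, IL_TNF_6h had the highest mean for all 4 genes.

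For several of the largest rises the difference between the effects moved with Ctrl_0h replicate 2. Fscn1 had a TNF-alone effect of 0.12 and a difference of 4.92 ± 0.99, but without Ctrl_0h replicate 2 these were 2.88 and 2.16, still called (adjusted p 0.00411). The differences of Lad1 (3.43 ± 0.71), Cxcl3 (4.03 ± 1.12) and Mmp25 (5.12 ± 1.28) were called with all libraries and were 1.36, 1.94 and 0.05 without it, with adjusted p of 0.209, 0.563 and 0.984. Conversely, the difference of Nos2 was not called with all libraries (-2.62 ± 1.18, adjusted p 0.141) and was called as negative without it (adjusted p 0.0255).

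Other genes changed less in the presence of the interleukins than without them. C3 was at 22.9 ± 4.72 CPM in Ctrl_0h and 3670.0 ± 171 CPM in TNF_6h, and at 759 ± 145 CPM in IL_6h and 2754 ± 458 CPM in IL_TNF_6h. The difference between the effects of TNF was -5.46 ± 0.25 on the log2 scale (adjusted p 3.92e-11). Saa3 was at 2.35 ± 1.18 and 2172 ± 218 CPM without and with TNF alone, and at 40.6 ± 10.3 and 73.6 ± 12.7 CPM in the presence of the interleukins, a difference of -8.98 ± 0.43 (adjusted p 6.43e-11). Saa3 was highest with TNF alone. Acod1 was at 1.07 ± 0.0372, 539 ± 18.7, 90.5 ± 1.54 and 1347 ± 70.4 CPM in Ctrl_0h, TNF_6h, IL_6h and IL_TNF_6h, with a difference of -5.08 ± 0.28 (adjusted p 4.53e-10). Unlike C3 and Saa3, it had its highest mean of these groups in IL_TNF_6h.

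At 24 h, in libraries that share none with those at 6 h, TNF with the interleukins changed 1726 genes (11.1%), 938 up (6.02%) and 788 down (5.06%). Of 1108 genes raised at 6 h, 523 were also raised at 24 h, 47.2% of the 6 h list and 55.8% of the 24 h list, and 14 were lowered. Of 1089 lowered at 6 h, 395 were lowered at 24 h, 36.3% and 50.1% of each list, and 18 were raised. The difference between the times was called for 576 genes (3.7%), 298 of them (1.91%) higher and 278 (1.78%) lower at 24 h. Times were run in different sets of libraries, so the time and the set cannot be told apart. Replicate 1 of IL_TNF_24h lay apart from its group (quality weight 0.219); without it, the calls at 24 h and between the times stayed on their side of the threshold for Icosl, Tnf, Nlrp3, Vcam1, C3, Retnla, Arg1, Clec10a, Ccl17, Ccl22 and Ccl24. The difference between the times was lost for Dhcr7 (adjusted p 0.0703) and was called for some genes not called with all libraries, such as Parp14 (adjusted p 0.00144) and Nr1h3 (adjusted p 9.43e-04).

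**Figure D5:**
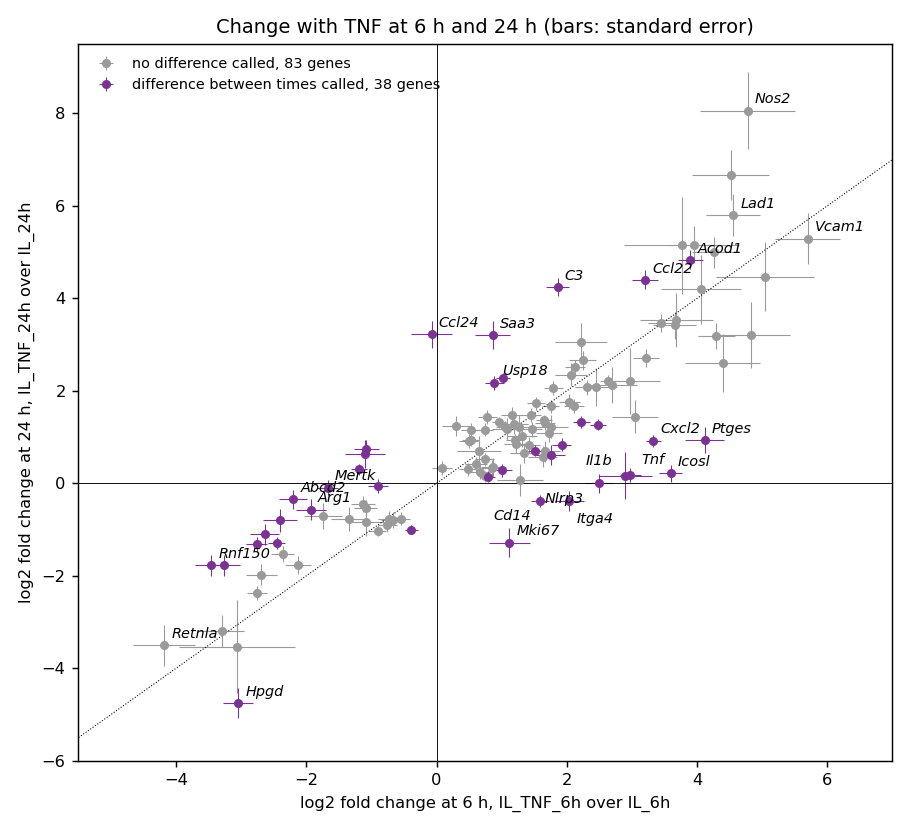
Each point is 1 of the 121 genes named, with its log2 fold change with TNF at 6 h on the horizontal axis and at 24 h on the vertical axis, bars for the standard error and a dotted line where both are equal; purple points are 38 genes whose difference between the times was called. Genes below the line on the right include Tnf (2.98 at 6 h, 0.19 at 24 h) and Icosl (3.60, 0.21), and genes above it C3 (1.86, 4.25) and Ccl24 (-0.08, 3.22).

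Several early responses were not called at 24 h. Icosl was at 2.25 ± 0.397 CPM in IL_24h and 2.63 ± 0.874 CPM in IL_TNF_24h (mean ± SD, n = 3), and the effect of TNF at 24 h minus that at 6 h was -3.38 ± 0.24 on the log2 scale (adjusted p 1.33e-07). Tnf was at 7.92 ± 0.124 and 9.05 ± 2.01 CPM (-2.79 ± 0.21, adjusted p 1.71e-07), and Nlrp3 at 14.96 ± 0.639 and 15.02 ± 2.74 CPM (-2.49 ± 0.29, adjusted p 4.09e-05). Other rises were also called at 24 h. Vcam1 was at 0.152 ± 0.122 and 5.87 ± 2.65 CPM, a log2 fold change of 5.29 ± 0.55, with no call for the difference between the times (-0.41 ± 0.82). The effect on C3 was larger at 24 h by 2.39 ± 0.24 (adjusted p 6.01e-06).

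Among alternative activation genes, the fall of Retnla was -3.51 ± 0.43 on the log2 scale at 24 h, with no call for the difference between the times (0.68 ± 0.59). Arg1 was not called at 24 h (-0.57 ± 0.22, adjusted p 0.120), and the difference between the times was called (1.36 ± 0.31, adjusted p 0.0161). Clec10a fell at 24 h by less than at 6 h (-1.29 ± 0.12, adjusted p of the difference 4.40e-04). Ccl17 and Ccl22 were raised at both times, by 3.41 ± 0.30 and 4.40 ± 0.20 at 24 h. Ccl24, not called at 6 h, was raised at 24 h, from 6.34 ± 1.30 to 59.1 ± 3.07 CPM (3.22 ± 0.30), and the difference between the times was called (3.30 ± 0.43, adjusted p 8.29e-05). The 3 chemokine genes of the alternative activation list were thus all higher with TNF at 24 h.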

How the data were processed

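RNA was extracted with Trizol, and libraries were prepared by standard Illumina protocols, per the labels' protocols. The authors deposited raw counts per gene, 1 column for each of 21 libraries and 1 row for each of 47069 identifiers. GRCm38, edgeR 3.28.1, Subread 1.6.3 (featureCounts) and TopHat2 2.0.12 are named in the submitters' processing notes. The annotation, strandedness and treatment of read pairs were not given in the sources used here. Without a strand setting, reads of overlapping antisense genes cannot be told apart. Counts of 2 (30373 values) outnumbered counts of 1 (17808), so a fragment may often have been counted once per mate.

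Identifiers were matched to symbols (32832 matched, 2611 older symbols replaced) and to positions in GRCm38.p6. With edgeR 4.0.16 in R 4.3.3, genes were filtered by filterByExpr by group (15581 kept of 32292 with a count, 14023 with a symbol, 99.94% of counts), scaled by TMM, and fitted in a robust quasi-likelihood model with 1 term per group over all 21 libraries (common biological coefficient of variation 22.8%, prior count 0.125). The threshold was an adjusted p of 0.05. The difference with and without interleukins was IL_TNF_6h minus IL_6h minus (TNF_6h minus Ctrl_0h), and the difference between times IL_TNF_24h minus IL_24h minus (IL_TNF_6h minus IL_6h).

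Of 25 function lists and 8 cell type lists, written from general knowledge (510 genes), members were described by counts and medians. Genes named with values were the 15 largest rises and falls by the rule of size, markers of both programmes, and up to 4 members of each list with the smallest p and no overlap, 121 in all; other members were named after their values were seen. Some members are counted but not reported here by name. The comparison, the lists and the rules were chosen with earlier results of these data known.

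Alternatives were DESeq2 1.42.0 size factors and its Wald test, limma 3.58.1 voom with sample quality weights, no filter, a strict filter, the 6 libraries alone, the same with a block for replicate numbers, omission of each of the 6 libraries in turn, and both libraries that stand apart left out. Chosen after the data were seen were leaving out Ctrl_0h replicate 2 or IL_TNF_24h replicate 1, and the 4 libraries left when the 6 are fitted without both that stand apart. On simulated counts of 15301 genes for IL_TNF_6h against IL_6h, 71 of 100 genes changed by 2-fold and 96 of 100 changed by 4-fold were called, with 8 false calls among 175. These counts were drawn independently for each gene and library, so no simulated library stood apart, and far fewer genes changed than were called in the data. The rates may therefore not hold for the libraries compared.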

Additional observations from a re-analysis of the deposited data

Results flagged for a closer look

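The effect of TNF in the presence of the interleukins differed between 24 h and 6 h for 38 of the 121 genes named, by a test of the difference itself in the edgeR model (adjusted p below 0.05, 3.7% of all genes tested). Values are log2 effects at 24 h minus those at 6 h. In 28 of the 38 the effect was smaller at 24 h and in 10 larger. Most of these genes were named for their effect at 6 h, which favours smaller effects at the other time, and the times were run in different sets of libraries.

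Among cytokines and chemokines the difference was -2.79 (2.98 at 6 h, 0.19 at 24 h) for Tnf, -2.73 (2.89 at 6 h, 0.17 at 24 h) for Il1b, -1.13 for Il15 and -2.41 for Cxcl2. It was positive for the chemokines Ccl24, 3.30 (-0.08 at 6 h, 3.22 at 24 h), Cxcl16, 1.26, and Ccl22, 1.20. In NF-kB signalling and pattern recognition it was -1.09 for Nfkbiz, -0.81 for Ikbke, -1.21 for Tlr2, -1.96 for Cd14, -0.73 for Irak3, -0.65 for Myd88 and -2.49 (2.49 at 6 h, 0.00 at 24 h) for Nlrp3. For surface ligands and integrins it was -3.38 (3.60 at 6 h, 0.21 at 24 h) for Icosl, -2.42 for Itga4 and 1.61 for Itgb3.

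The effect was larger at 24 h by 2.39 (1.86 at 6 h, 4.25 at 24 h) for C3, of complement, and by 2.35 (0.86 at 6 h, 3.21 at 24 h) for Saa3, of the acute phase, while the difference of C1ra, also of that list, was not called (0.43, adjusted p 0.388). Usp18, an inhibitor of interferon signalling, differed by 1.29. Among enzymes the difference was 0.93 for Acod1, -3.18 (4.12 at 6 h, 0.94 at 24 h) for Ptges, 1.49 for Ptgs1, -1.70 (-3.05 at 6 h, -4.75 at 24 h) for Hpgd, -0.90 for Sod2, 0.85 for Dhcr7 and 1.82 for Scd2.

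Other genes that fell at 6 h and had positive differences were Arg1 1.36, Clec10a 1.17, Irf4 1.74, Rnf150 1.69, Thbd 1.49, Zfyve28 1.45, Cd300lf 1.54, Abcd2 1.86 and Mertk 1.57. Hpgd and Pcna also fell at 6 h and had negative differences. The cell cycle genes Pcna and Mki67 differed by -0.62 and -2.40 (1.11 at 6 h, -1.28 at 24 h). Of the 38, the difference was not called without both libraries that stand apart for Acod1, Il1b, Il15, Irf4, Irak3 and Dhcr7 (adjusted p 0.0867, 0.0679, 0.0815, 0.0966, 0.0915 and 0.0503), nor for Dhcr7 without IL_TNF_24h replicate 1 (0.0703).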

How the results depend on the processing

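With all libraries 1108 genes rose and 1089 fell. Limma voom with sample quality weights gave 2918 and 3161, the 6 libraries alone with a replicate block 733 and 511, and the 6 alone without both libraries that stand apart 1786 and 1693. Leaving out 1 of the 6 libraries at a time gave 782 to 1054 rises and 738 to 1043 falls. Without Ctrl_0h replicate 2 there were 1257 rises and 1274 falls, and without IL_TNF_24h replicate 1 there were 1210 and 1165. Other settings stayed within 1.5 times, and no gene was called in the opposite direction under any alternative.

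The difference with and without interleukins was called for 2865 genes and for 5820 with limma voom with sample quality weights. It was called for 2135 to 3045 with 1 of the 6 libraries left out, 2510 without Ctrl_0h replicate 2 and 3309 without IL_TNF_24h replicate 1. The difference between times was called for 576 genes, for 928 with the DESeq2 Wald test and for 3988 with limma voom with sample quality weights. With 1 of the 6 libraries left out it was called for 352 to 587, the lowest without IL_6h replicate 3 (352) and IL_TNF_6h replicate 2 (383). Without Ctrl_0h replicate 2 it was called for 755 genes, and without IL_TNF_24h replicate 1 for 700. The cause of these shifts was not tested.

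Of the 121 genes named, 9 lost their call without both libraries that stand apart, 14 with the replicate block and 3 to 10 without 1 of the 6 libraries. Uncalled values changed sign for Ccl24 (-0.24 to 0.08 with 1 library left out, positive without IL_TNF_6h replicate 2) and Il4ra (-0.05 to 0.24, negative without IL_6h replicate 2 or, at -0.03, IL_TNF_6h replicate 1).

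Replicate numbers do not pair the libraries: deviations of same-numbered libraries from their groups correlated across genes by 0.889, -0.777 and -0.612, while IL_6h replicate 2 and IL_TNF_6h replicate 3 correlated by 0.928.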

Other observations

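Some genes were called in opposite directions by TNF with and without the interleukins at 6 h, with the difference called as well (edgeR, adjusted p below 0.05). Of 1108 genes that TNF raised with the interleukins, 57 were lowered without them, and of 1089 lowered with them, 76 were raised without. Over all genes tested, TNF alone lowered 20.4% and raised 18.8%, and 18.4% had a called difference. Both counts are thus smaller shares of their lists than TNF alone gave over all genes. In 32 of the 57 genes and 65 of the 76 the highest group mean was at least 10 CPM and neither pair of groups overlapped. Without Ctrl_0h replicate 2 the numbers were 53 and 82, of which 40 and 61 were the same genes, and without both libraries that stand apart 39 and 83, of which 36 and 47 were the same. Leaving out 1 of the 6 libraries gave 37 to 51 and 40 to 93, the lowest 37 without IL_6h replicate 3 or IL_TNF_6h replicate 1 and 40 without IL_TNF_6h replicate 2. Leaving out Ctrl_0h replicate 2 was chosen after seeing the data. The other omissions were alternatives of the main comparison, set with earlier results of these data known. The genes named here were chosen after their values were seen. Vegfa, the growth factor of blood vessels, had mean levels from 15.7 to 11.4 CPM with the interleukins, and from 20.9 to 93.0 CPM without (log2 fold changes -0.46 with the interleukins and 2.15 without). Vegfa was not in the count without IL_6h replicate 1 or 3, IL_TNF_6h replicate 2 or 3, or both libraries that stand apart. Mertk, the receptor for dying cells, went from 32.8 to 10.3 CPM with the interleukins, and from 19.1 to 28.7 CPM without (-1.67 with the interleukins and 0.58 without). Nfil3, a transcription factor that the interleukins induce, went from 66.1 to 47.4 CPM with the interleukins, and from 6.98 to 21 CPM without (-0.48 with the interleukins and 1.59 without). The pro-death gene Bmf and the prostaglandin E2 receptor Ptger2 had log2 fold changes of -1.60 with the interleukins and 0.56 without, and -1.13 with the interleukins and 0.97 without.

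In the other direction, Pf4, a platelet chemokine that macrophages also express, went from 27.3 to 64.9 CPM with the interleukins, and from 86.4 to 30.9 CPM without (1.25 with the interleukins and -1.48 without). Rhof, a GTPase of actin protrusions, went from 6.97 to 29.7 CPM with the interleukins, and from 7.32 to 4.81 CPM without (2.09 with the interleukins and -0.61 without), and Cbr2, a carbonyl reductase, from 23.7 to 41.0 CPM with the interleukins, and from 21.5 to 3.13 CPM without (0.79 with the interleukins and -2.78 without). Cbr2 was not in the count without IL_TNF_6h replicate 1. The effects without interleukins include 6 h in culture after Ctrl_0h and come from another set of libraries, and neither can be told apart from the interleukins here.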
